A study of Homo sapiens with 40 samples.

Results

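The CASC8 and POU5F1B interval of 8q24 is a stretch of 400 kb on chromosome 8 that lies upstream of the MYC oncogene. Its members are the CENP-A peaks whose deposited start lies from 128200000 to 128599999 of hg19, in any of 6 peak sets. They number 297 of 5748 peaks in all sets together, with 9 of 408 in control, 77 of 952 after DAXX knockdown, 21 of 848 after HIRA knockdown, 72 of 940 after HJURP knockdown, 38 of 1018 after HIRA+DAXX knockdown and 80 of 1582 after HIRA+HJURP knockdown. The peaks come from native CENP-A ChIP-Seq of SW480, an established human colon cancer cell line with known amplification of the 8q24 region. Cells were transfected with siRNA against DAXX, HIRA or HJURP, or against the pairs HIRA and DAXX or HIRA and HJURP, and were collected after 72 hours. The study calls the comparison cells control siRNA cells, whereas their labels read untreated. The protocol in the labels of all samples also lists RO-3306, a CDK inhibitor that arrests cells in G2, followed by release, and the methods do not say whether the cells for ChIP were treated this way. Chromatin was released with MNase and precipitated with ACA serum, a human serum against centromere proteins. There were 4 ChIP libraries for control and for every single knockdown but 2 for either double knockdown, and the authors merged all libraries of a condition into 1 list of peak positions. The lists hold no height, score or read count, so the values below have no replicate error, the number of reads behind a peak is not known from them, and no difference between conditions was tested.

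CENP-A is the histone H3 variant that marks centromeres. HJURP is the chaperone that places it there, while HIRA and DAXX are chaperones of the variant H3.3, HIRA mainly in active chromatin and DAXX mainly in heterochromatin. The interval is known for risk loci of colorectal cancer and is poor in coding genes. It holds the lncRNA gene CASC8, the coding retrogene POU5F1B, which is derived from the pluripotency factor gene POU5F1, and parts of the lncRNA genes PCAT1 and CASC19.

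With control siRNA, CENP-A peaks were sparse in the interval. The 9 control peaks covered 9.36 kb, or 2.34% of the interval. After DAXX knockdown, 77 peaks covered 98.5 kb, and after HJURP knockdown 72 peaks covered 107.3 kb. These were 8.56 and 8 times the control number and 10.5 and 11.5 times the control coverage. HIRA knockdown stood apart from the other single knockdowns, with 21 peaks over 28.4 kb, 2.33 times control in number and 3.04 times in coverage. Counting peaks of any width, the HIRA+HJURP set had the highest number, 80 peaks or 8.89 times control, over 73.9 kb or 7.89 times control. With peaks of at least 500 bp alone it had 49, below DAXX with 63 and HJURP with 62. With peaks within 1000 bp merged it had 32, against 33 for DAXX and 31 for HJURP. The HIRA+DAXX set had 38 peaks, 4.22 times control, over only 15.9 kb, 1.69 times control. With peaks of at least 500 bp alone, it had 10 peaks, 1.67 times control, and its coverage was 0.971 times control.

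The position of every peak is drawn in the map of the interval.

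The number of peaks relative to control was higher here than in the remainder of the same lists, by little for HIRA knockdown and by more in the other sets, counting peaks of any width. Over all peaks outside the interval, DAXX knockdown had 2.19 times control, HIRA knockdown 2.07, HJURP knockdown 2.18, HIRA+DAXX 2.46 and HIRA+HJURP 3.76. In the rest of 8q24 the values were 4.33, 1.88, 4.17, 2.53 and 5.49 in the same order. These ratios count peaks, and coverage differed. Over the whole lists, interval included, peaks covered 552.7 kb in control, 1385.7 kb for DAXX, 905.7 kb for HIRA and 1125.4 kb for HJURP. HIRA+HJURP had 756.7 kb, while HIRA+DAXX had 386.8 kb, below control despite its higher number of peaks. In the rest of 8q24 HIRA+DAXX peaks covered 90.4 kb, against 75.2 kb in control. As a share of all peaks of its set, the interval held 2.21% in control (95% Wilson interval 1.16% to 4.14%), 8.09% after DAXX knockdown (6.52% to 9.99%), 7.66% after HJURP knockdown (6.13% to 9.54%), 5.06% after HIRA+HJURP knockdown (4.08% to 6.25%), 3.73% after HIRA+DAXX knockdown (2.73% to 5.08%) and 2.48% after HIRA knockdown (1.63% to 3.76%). The intervals cover counting error only and treat neighbouring peaks as independent. The control value rests on 9 peaks. As a share of covered bases the order differed, with 9.76% for HIRA+HJURP, 9.54% for HJURP and 7.11% for DAXX. HIRA+DAXX had 4.10%, HIRA 3.14% and control 1.69%. Counting peaks within 1000 bp of each other as 1 gave 4.71 times control for DAXX, 4.43 times for HJURP and 4.57 times for HIRA+HJURP. This count was not made outside the interval, so the comparison with the remainder rests on unmerged peaks.

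Peak width also separated the sets. The control peaks were 265 to 3745 bp wide, with a median of 585 bp. The median was 917 bp after DAXX knockdown, with a range of 292 to 6876 bp. It was 1167 bp after HIRA knockdown, with a range of 344 to 3614 bp, and 1113 bp after HJURP knockdown, with a range of 197 to 8677 bp. Peaks of at least 2000 bp numbered 1 in control, 16 after HJURP knockdown, 12 after DAXX knockdown and 4 after HIRA knockdown. Both double knockdowns had narrower peaks than the single knockdowns, with a median of 312 bp for HIRA+DAXX (123 to 2078 bp) and of 618 bp for HIRA+HJURP (141 to 8186 bp). In the rest of 8q24 the medians were 817 bp in control, 1138 bp for DAXX, 1234 bp for HIRA, 1060 bp for HJURP, 359.5 bp for HIRA+DAXX and 469 bp for HIRA+HJURP, so narrower peaks in the double knockdowns were not limited to the interval. The double knockdowns had 2 libraries where the other conditions had 4, and the effect of this on width cannot be told apart from that of the knockdown.

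**Figure D1:**
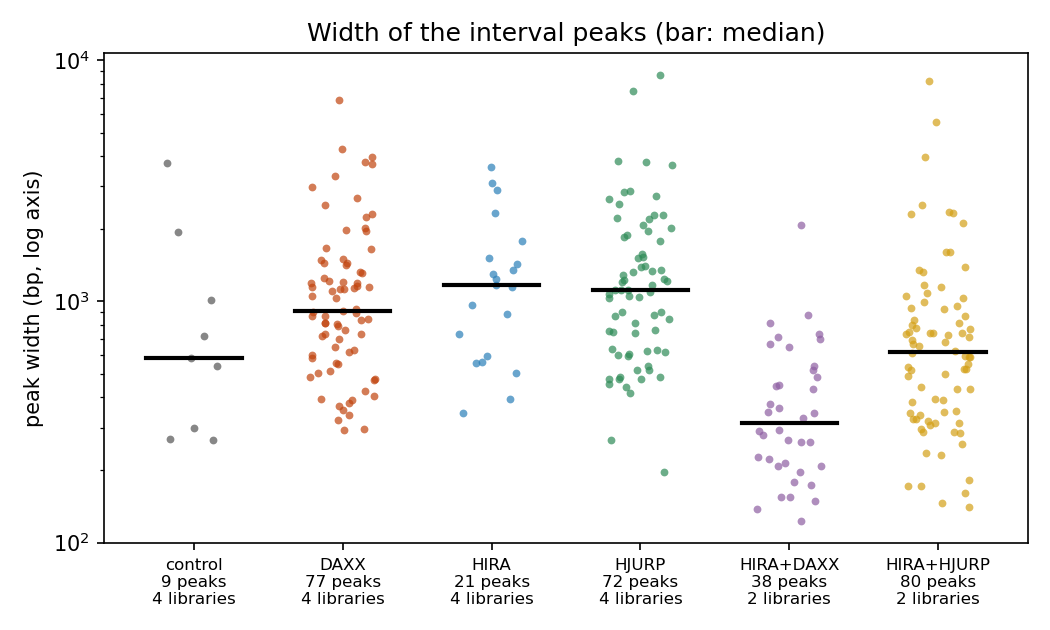
Each point is the width in bp of 1 interval peak on a log axis, by set, and the black bar is the median. The medians run from 312 bp for HIRA+DAXX to 1167 bp for HIRA, and the 3 widest peaks, of 8677, 8186 and 7447 bp, belong to HJURP, HIRA+HJURP and HJURP.

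Spacing was the gap from the end of a peak to the start of the next one in the same set. Control peaks lay far apart, with a median gap of 11268.5 bp and a longest gap of 50.7 kb. The median gap was 691 bp after DAXX knockdown, 829 bp after HJURP knockdown and 790 bp after HIRA+HJURP knockdown, and the longest gaps were 14.8, 11.5 and 18.6 kb. Gaps of at most 1000 bp made up 43 of 76, 40 of 71 and 47 of 79 gaps in these sets, against 2 of 8 in control. HIRA and HIRA+DAXX knockdown were intermediate, with median gaps of 3597.5 and 1621 bp. Between the outermost peaks of a set, 46.6% of all bases were in a peak after DAXX knockdown, 50.8% after HJURP knockdown and 34.7% after HIRA+HJURP knockdown, but 16.4% after HIRA knockdown, 7.47% after HIRA+DAXX knockdown and 5.90% in control.

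The occupied stretch ended at nearly the same base in 4 of the 6 sets. In DAXX, HJURP, HIRA+HJURP and HIRA+DAXX knockdown the last peak of the interval ended between 128412831 and 128412922, a spread of 91 bp. This point lies at the start of CCAT2, a lncRNA gene of 1.75 kb on the plus strand from 128412644 to 128414395, inside an intron of CASC8. The last peak covered the annotated CCAT2 start site and the first 279 bp of the gene after DAXX knockdown, 265 bp after HJURP knockdown, 262 bp after HIRA+HJURP knockdown and 188 bp after HIRA+DAXX knockdown. The last control peak ended before it, at 128360415, as did the last HIRA knockdown peak, at 128374695.

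Beyond this point no set had a peak for 193.0 kb, to 128605965, and the first HJURP knockdown peak of the next segment began at 128605966. DAXX and HIRA+HJURP knockdown resumed at 128606769 and 128605980, but control, HIRA and HIRA+DAXX knockdown had no peak before 129141228. The reference sequence of the empty part of the interval has no unknown base. Inside the occupied stretch, the longest pieces without a peak of any set were 11.5 kb, from 128260246 to 128271751 around the unnamed lncRNA gene ENSG00000287781, and 8.26 kb, from 128310435 to 128318693 in CASC8. The last site lay 334.8 kb before MYC, which spans 128747680 to 128755197. At the other end, the first interval peaks began between 128200191 in HIRA+HJURP and 128201778 in control. The distance from the previous peak of the set was 55.9 kb for the control and 32.2 kb for the HIRA+DAXX set, but under 1000 bp in the other 4 sets. A peak that began before the boundary ran 865 bp into the interval after DAXX knockdown, 613 bp after HIRA knockdown and 661 bp after HJURP knockdown. These straddling peaks are not members by the rule.

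Coverage was spread over the first 4 windows of 50 kb. The fifth window, from 128400001, runs past the end of the occupied part at 128412922, so its kb cannot be set directly against those of the others. After HJURP knockdown, 26.6, 20.5, 20.0 and 32.5 kb of the first 4 windows lay in peaks, and 7.70 kb of the fifth. After DAXX knockdown the values were 24.7, 22.1, 17.6, 25.998 and 8.21 kb. HIRA+HJURP had 24.8 kb in the first window, close to both, and 13.2, 10.4, 19.9 and 5.67 kb in the next ones. Control had 3.75 kb in the first window and 3.75 kb in the one from 150 kb, with 0.299 kb and 1.57 kb between them. HIRA knockdown had 9.07, 6.50, 5.58 and 7.28 kb in the first 4 windows, and HIRA+DAXX had 5.22, 1.62, 2.83 and 5.79 kb. In the fifth window HIRA+DAXX had 0.39 kb, and control and HIRA knockdown had no peak. The second window, in which control had a single peak of 299 bp, held 21 peaks after DAXX knockdown and 18 after HJURP knockdown.

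**Figure D2:**
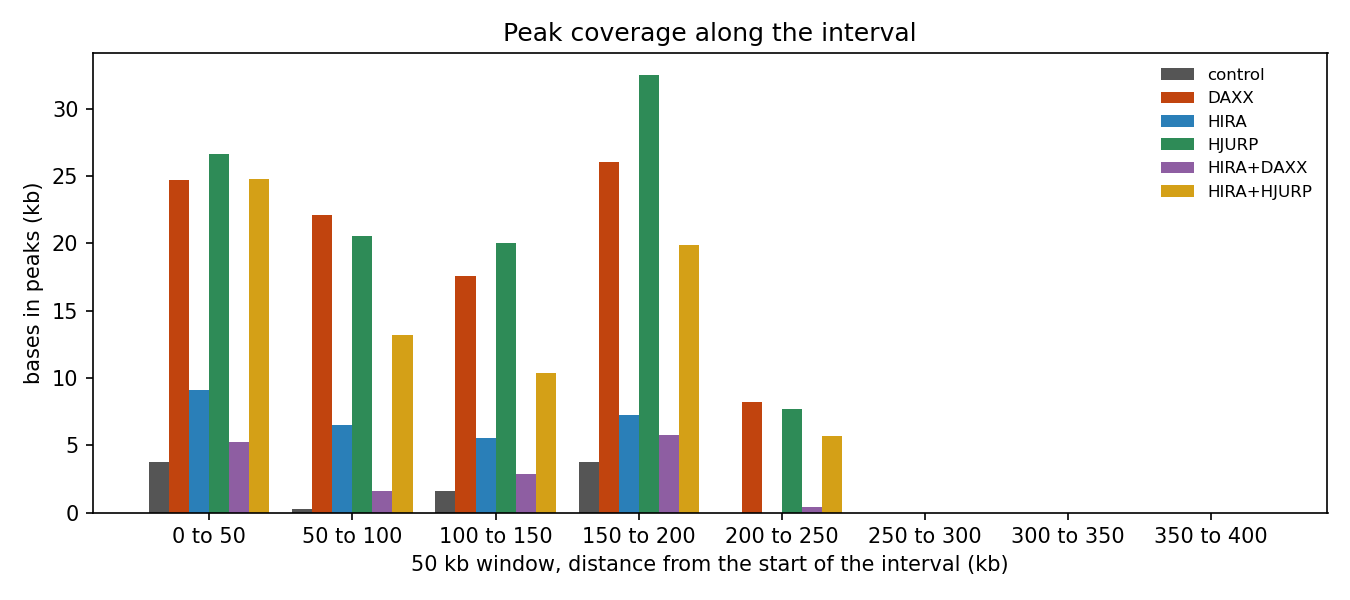
Bars give the kb in peaks of each set in 50 kb windows, by distance from the start of the interval. The windows from 0 and from 150 kb are the highest in each set, HJURP reaches 32.5 kb in the latter, and the last 3 windows are empty in all 6 sets.

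Peaks of the different sets fell on common sites. Joining all interval peaks that share a base gave 72 sites over 119.9 kb, 197 to 8791 bp wide with a median of 1124 bp. Of these, 62 held a HJURP knockdown peak, 59 a DAXX knockdown peak, 49 a HIRA+HJURP peak, 19 a HIRA+DAXX peak, 18 a HIRA knockdown peak and 7 a control peak. No site held control, HIRA or HIRA+DAXX peaks alone, while 9 sites held HJURP knockdown peaks alone, 3 DAXX knockdown peaks alone and 2 HIRA+HJURP peaks alone. Sites were not counted over the whole lists, so whether these counts are particular to the interval is not known. The 14 sites with 1 set were narrow, with a median of 482 bp and a maximum of 1226 bp, and the 15 sites with 5 or 6 sets were 1127 bp or wider, with a median of 2977 bp. A site that joins peaks of more sets is wider partly by construction. The most frequent combination, with 20 sites, was DAXX, HJURP and HIRA+HJURP knockdown together.

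All 9 control peaks shared a base with a peak after DAXX, HJURP and HIRA+HJURP knockdown, where over all control peaks of the genome the shares were 86%, 81.6% and 83.8%. After HIRA knockdown 7 of 9 were touched (84.3% over all control peaks), and after HIRA+DAXX knockdown 5 of 9 (74.8%). Of the 9.36 kb of control coverage, 9.32 kb lay in DAXX knockdown peaks, all 9.36 kb in HJURP, 9.12 kb in HIRA+HJURP, 7.69 kb in HIRA and 5.50 kb in HIRA+DAXX knockdown peaks. The control peaks without a HIRA knockdown peak were those from 128333152 to 128333868 and from 128345743 to 128346007, both in introns of CASC8. HIRA+DAXX had no peak at either, nor at the CASC8 peak from 128322922 to 128323506 and the CASC19 peak from 128201778 to 128202045.

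Most knockdown peaks had no control base. They were 70 of 77 after DAXX knockdown, or 90.9% (95% Wilson interval 82.4% to 95.5%), where the share over all DAXX knockdown peaks of the genome was 68.6%. After HJURP knockdown they were 65 of 72, or 90.3% (81.3% to 95.2%), against 66.2% genome-wide. After HIRA+HJURP knockdown they were 71 of 80, or 88.8% (79.98% to 94.0%), against 64.6%. After HIRA knockdown they were 16 of 21, or 76.2% (54.9% to 89.4%), against 56.4%, and after HIRA+DAXX knockdown 28 of 38, or 73.7% (58.0% to 85.0%), against 49.9%. In the rest of 8q24 the shares were 84.0%, 84.3%, 84.8%, 60.7% and 56.6% in the same order, closer to the interval than those of the genome. Coverage outside control peaks was 89.2 kb for DAXX, 98.0 kb for HJURP, 64.8 kb for HIRA+HJURP, 20.7 kb for HIRA and 10.4 kb for HIRA+DAXX knockdown.

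DAXX and HJURP knockdown peaks lay on nearly the same bases. Of 77 DAXX knockdown peaks 70 touched a HJURP knockdown peak, or 90.9%, where the share over all DAXX knockdown peaks of the genome was 72.6%. In the other direction it was 62 of 72, or 86.1%, against 80.6% genome-wide. The shared 89.3 kb were 90.6% of the DAXX and 83.2% of the HJURP coverage. For 42 pairs in which a peak of each set touched a single peak of the other, the median offset was 48 bp between starts and 30.5 bp between ends, and 56 of 84 edges were within 100 bp. All 21 HIRA knockdown peaks touched a DAXX knockdown peak, against 74.9% of all HIRA knockdown peaks of the genome, and 98.4% of their coverage lay in DAXX knockdown peaks. They covered 28.4% of the DAXX coverage.

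Most peaks of the double knockdowns lay within HJURP or DAXX knockdown peaks, and fewer within HIRA knockdown peaks. Of the 80 HIRA+HJURP peaks, 75 touched a HJURP knockdown peak, or 93.8% (65.9% over all peaks of the set), and 57 lay wholly inside one, or 71.3% (51% over all). With HIRA knockdown peaks the counts were 26 of 80 touching, or 32.5% (54.3% over all), and 11 of 80 wholly inside (40.6% over all), so here the interval was below the genome-wide share. Of the 72 HJURP knockdown peaks, 51 touched HIRA+HJURP peaks, or 70.8% (71.5% over all), close to the genome-wide share, and 23 of them touched 2 or more. The 38 HIRA+DAXX peaks each shared bases with DAXX knockdown peaks (81.7% over all), 37 of them wholly inside one (73.5% over all). With HIRA knockdown peaks it was 23 of 38 touching, or 60.5% (74% over all), and 20 of 38 wholly inside (62.6% over all). Of the 77 DAXX knockdown peaks, 23 touched HIRA+DAXX peaks, or 29.9% (48.1% over all). HIRA+DAXX peaks covered 15.9% of the DAXX coverage and 40.5% of the HIRA coverage, and the HIRA+HJURP peaks covered 63.7% of the HJURP and 86.9% of the HIRA coverage. All 19 sites with HIRA+DAXX peaks also held HIRA+HJURP peaks. For this pair of sets the share over all peaks was not computed, so the count is not read as particular to the interval.

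The widest site present in all 6 sets spanned 8702 bp from 128354569 to 128363270. It lay in introns of CASC8 and POU5F1B and touched an exon of PCAT1. Peaks covered 3745 bp of it in control, 3614 bp after HIRA knockdown, 3340 bp after HIRA+DAXX knockdown, 6153 bp after HIRA+HJURP knockdown, 8370 bp after DAXX knockdown and 8677 bp after HJURP knockdown. The control, HIRA and HIRA+DAXX values were close to each other, and the other 3 were higher. This site held the widest peak of control (128356671 to 128360415), DAXX (128354750 to 128361625), HIRA (128357362 to 128360975), HJURP (128354569 to 128363245) and HIRA+DAXX knockdown (128358863 to 128360940, with the third widest from 128357904 to 128358715), and the second widest of HIRA+HJURP (128355434 to 128360976).

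The next site in all 6 sets spanned 8335 bp from 128225259 to 128233593 in CASC19, with exons of that gene in it. Control covered 1933 bp of it and HIRA knockdown 2322 bp with 1 peak each. HIRA+DAXX covered 2119 bp with 6 peaks, DAXX 7673 bp and HJURP 7630 bp with 3 peaks each, and HIRA+HJURP 8186 bp with 1 peak, the widest of that set, from 128225408 to 128233593. The second widest control peak, from 128227149 to 128229081, and the third widest DAXX knockdown peak, from 128229581 to 128233571, were part of it. The third site, from 128279708 to 128284742 in an intron of PCAT1, was narrow in control, with 299 bp. It reached 697 bp after HIRA+DAXX, 1749 bp after HIRA, 4357 bp after HIRA+HJURP, 4879 bp after HJURP and 4994 bp after DAXX knockdown, and the third widest HJURP knockdown peak, from 128280912 to 128284738, lay in it. The remaining site of all 6 sets, at the start of the interval in CASC19, held the third widest control peak, from 128202999 to 128204010, and the third widest HIRA knockdown peak, from 128201388 to 128204296.

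Among 9 sites that all 5 knockdowns had and control did not, the widest was the widest of the whole interval, with 8791 bp from 128369937 to 128378727 in introns of CASC8, POU5F1B and PCAT1. HJURP knockdown covered 8544 bp of it, HIRA+HJURP 7282 bp, DAXX 6844 bp, HIRA+DAXX 1022 bp and HIRA 562 bp. It held the second widest peak of HJURP knockdown (128371281 to 128378727), that of DAXX knockdown (128371314 to 128375621) and the third widest of HIRA+HJURP (128372762 to 128376755). HIRA knockdown was far below HJURP and DAXX knockdown here. At the next site, from 128349842 to 128354263 with 4422 bp, it was not, with 3101 bp against 3314 bp for DAXX, 3672 bp for HJURP and 3673 bp for HIRA+HJURP, while HIRA+DAXX had 1085 bp. The second widest peaks of HIRA (128350314 to 128353414) and of HIRA+DAXX (128351980 to 128352856) lay at this site. The third site, from 128211922 to 128215523 in CASC19, had 3482 bp after HJURP, 3367 bp after HIRA+HJURP, 2516 bp after DAXX, 557 bp after HIRA and 179 bp after HIRA+DAXX knockdown.

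CASC8 spans 128302053 to 128494384 on the minus strand and takes up 48.1% of the interval, the empty part included. Up to the last site it takes up 110.9 kb, of the 212.7 kb from the first to the last site. Peaks in it numbered 4 of 9 in control, 40 of 77 after DAXX, 9 of 21 after HIRA, 38 of 72 after HJURP, 16 of 38 after HIRA+DAXX and 38 of 80 after HIRA+HJURP knockdown. They covered 5.31 kb of the gene in control, 49.8 kb after DAXX, 11.0 kb after HIRA, 58.2 kb after HJURP, 7.66 kb after HIRA+DAXX and 34.0 kb after HIRA+HJURP knockdown, which is 2.76%, 25.9%, 5.72%, 30.2%, 3.98% and 17.7% of its length. All 40 CASC8 sites lay in the downstream 57.6% of the gene. The nearer of its 2 annotated start sites, at 128433619, was 20.7 kb from the last site and the other, at 128494384, was 81.5 kb away. Peaks at CASC8 were intronic with 2 exceptions, 1 DAXX and 1 HIRA knockdown peak, which shared 18 and 71 bp with exons (0.018 and 0.071 kb).

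POU5F1B spans 128334428 to 128432311 on the plus strand and takes up 24.5% of the interval, the empty part included. Its share of the occupied part alone was not computed. Peaks in it numbered 2 in control, 31 after DAXX, 4 after HIRA, 29 after HJURP, 13 after HIRA+DAXX and 32 after HIRA+HJURP knockdown, and they covered 4.10%, 44.2%, 8.43%, 51.2%, 6.91% and 31.9% of the gene. All of them lay in 1 of its 3 annotated transcripts, a long form that starts at 128334428. Its other transcripts start at 128421271 and 128428112 and held no peak in any set. The coding sequence, from 128428112 to 128429188, was 15.2 kb from the nearest site. The long form's start site was covered after HJURP knockdown alone, but a DAXX knockdown peak of the same site began just past it, at 128334508. Exons of POU5F1B contributed at most 0.199 kb to any set.

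The whole occupied part lies in PCAT1, a lncRNA gene from 127568568 to 128431295, so every peak of the interval was inside this gene, with 1 to 6 peaks per set at its exons. This holds over all its annotated transcripts. Its main transcript reaches only to 128305107 and held 35 of the 72 sites. The main transcript of CASC19, a lncRNA gene on the minus strand, lies before the interval, from 128091140 to 128197488, and held no site. Over all transcripts CASC19 spans 128084939 to 128239786 and reaches 39.8 kb into the interval. Peaks covered 9.43% of this piece in control, 46.0% after DAXX, 18.3% after HIRA, 50.5% after HJURP, 11.4% after HIRA+DAXX and 49.0% after HIRA+HJURP knockdown. In CASC19 the HIRA+HJURP set came close to HJURP knockdown alone, whereas in CASC8 it covered 17.7% against 30.2%. Of the 3 other annotated genes of the interval, the unnamed lncRNA genes ENSG00000287781 and ENSG00000286266 held no peak, and the pseudogene ENSG00000271509 was covered after DAXX and HIRA knockdown. From the first to the last site, exons of any gene make up 8.67% of the bases. They made up 7.62% of the peak bases after DAXX, 7.80% after HJURP, 10.5% after HIRA+HJURP, 16.0% after HIRA and 19.3% after HIRA+DAXX knockdown and 22.1% in control. The share of peaks at an exon depended on how exons were counted, and the share of bases was not recomputed. With any base and any transcript, 33.3% of control, 18.2% of DAXX, 18.1% of HJURP and 20% of HIRA+HJURP peaks were at an exon. Placed by the middle base, the shares were 22.2%, 7.79%, 9.72% and 7.5%, and with the main transcript of each gene 0%, 3.90%, 1.39% and 1.25%. By the same counts in turn, the shares were 28.6%, 14.3% and 9.52% for HIRA knockdown. For HIRA+DAXX knockdown they were 23.7%, 18.4% and 2.63%.

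The peaks lay in AT-rich sequence. GC content was 37.5% over the bases of all sites and 43.2% over the bases between sites, from the first to the last site. It was 41.3% in the empty part after the last site, 40.6% in the whole interval and 40.2% on chromosome 8. By set it was 36.6% in control, 37.03% in DAXX, 35.1% in HIRA, 37.6% in HJURP, 36.6% in HIRA+DAXX and 37.01% in HIRA+HJURP peaks, and in the rest of 8q24 it ran from 35.02% in HIRA to 37.1% in HJURP peaks. Bases covered in 1 set alone had 39.0% GC, those in 3 sets 37.1% and those in 5 sets 35.2%, while those in 6 sets had 36.1%.

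The same order was seen along the sequence. The occupied part was cut into 212 bins of 1000 bp and the bins were ordered by GC content. In the 53 bins with the lowest GC, from 30.8% to 37%, an average of 73.9% of a bin lay in DAXX knockdown peaks and 73.0% in HJURP knockdown peaks. In the 53 bins with the highest, from 42.4% to 75.4%, it was 15.2% and 20.8%. Control went from 10.7% to 0%, HIRA knockdown from 33.2% to 2.31%, HIRA+DAXX from 17.9% to 0% and HIRA+HJURP from 56.4% to 9.77%. The part of base composition in the peak calls was not tested.

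**Figure D3:**
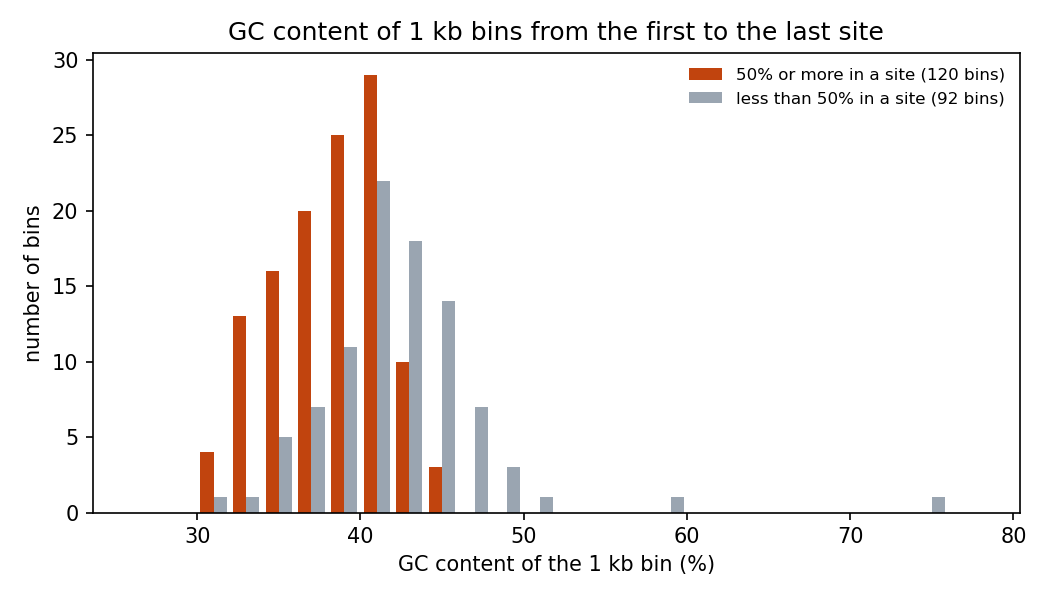
Number of 1000 bp bins by GC content in percent, for bins with 50% or more of their bases in a site of any set (orange) and for the others (grey). The 120 bins in sites have a median of 38.7% and the 92 others a median of 41.9%, and the bin with 75.4% has no base in a site.

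The interval was set beside the other 8q24 segments, each averaged over its whole length with its empty stretches. On this scale, peaks covered 24.6 kb per 100 kb of the interval after DAXX knockdown and 26.8 kb after HJURP knockdown, against 25.1 and 24.1 kb on the PCAT1 side, the 700 kb that precede it. The interval's average includes the 187 kb without peaks. Up to the last site alone the values were 46.3 and 50.4 kb per 100 kb. Of the other segments, only the distal end was cut at its last peak. Over the whole interval control was lower, at 2.34 kb per 100 kb against 4.15 kb on the PCAT1 side. HIRA knockdown was lower too, at 7.10 against 11.3 kb, and HIRA+DAXX at 3.96 against 6.48 kb. Up to the last site alone, control had 4.40 kb, HIRA knockdown 13.3 kb and HIRA+DAXX 7.44 kb per 100 kb. These values were above the whole-length averages of the PCAT1 side, which keep any empty stretches of that segment. The lower averages of the interval thus depend on its empty part, and which segment was denser is not settled by these values. Around MYC and PVT1, which follow the interval, DAXX knockdown had 2.93 kb and HJURP knockdown 3.93 kb per 100 kb. The distal end, which was taken from 129199348 to 129617268, had the highest whole-segment averages in these sets, 37.5 and 37.9 kb. That segment was cut at the last 8q24 peak of any set, so it has no empty end, whereas the interval's average includes one. Up to its last site the interval was above the distal end, at 46.3 kb for DAXX and 50.4 kb for HJURP knockdown. In coverage relative to control, the interval stood at 10.5 for DAXX and 11.5 for HJURP, above the proximal gene desert (8.33 and 7.17), the PCAT1 side (6.05 and 5.80) and the distal end (5.23 and 5.28). It stood below the MYC and PVT1 segment (16.8 and 22.6), where control had only 2 peaks. HIRA knockdown did not follow this order, with a coverage of 3.04 times control in the interval against 3.86 in the gene desert. By number of peaks the desert was higher for HIRA knockdown (3.57 against 2.33) and for HIRA+HJURP (9.07 against 8.89). The MYC and PVT1 segment was higher by number for HJURP knockdown (9.5 against 8) and HIRA+HJURP (9 against 8.89), but lower for DAXX knockdown (7.5 against 8.56). Without the widest interval peak of each set the interval's coverage ratios were 16.3 for DAXX and 17.6 for HJURP, since the widest control peak alone held 3.75 of 9.36 kb.

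**Figure D4:**
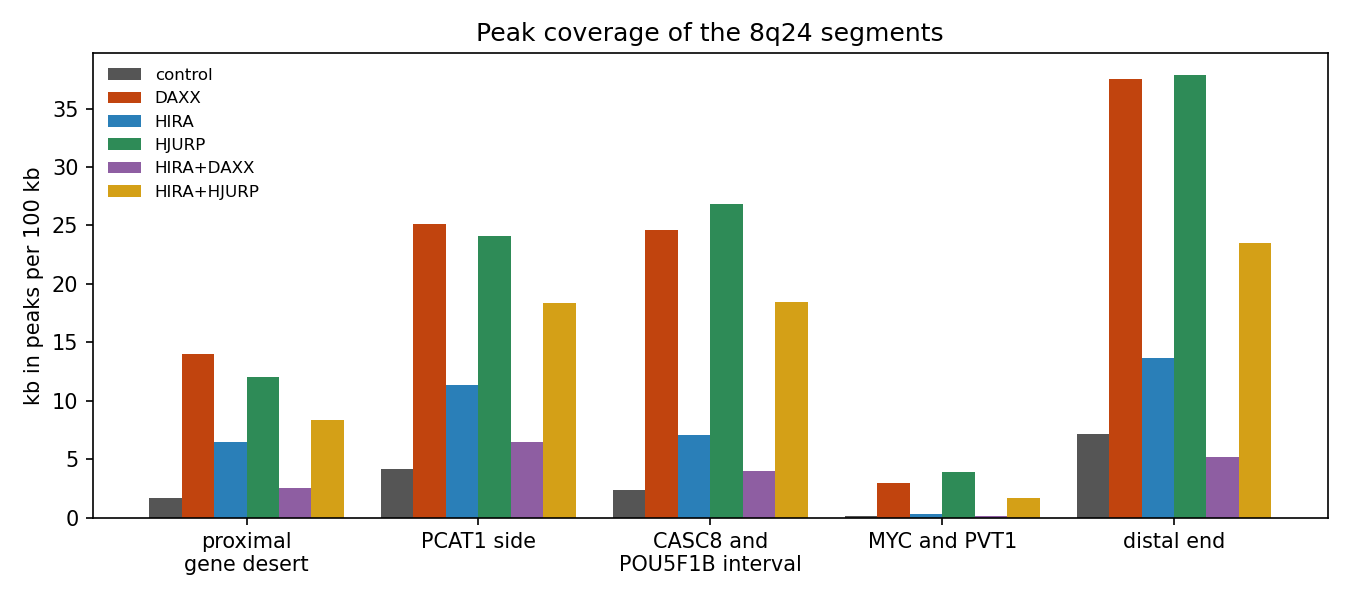
Bars give the kb in peaks per 100 kb for each set in 5 segments of 8q24, in their order along the chromosome. In the interval DAXX and HJURP knockdown reach 24.6 and 26.8 kb, against 25.1 and 24.1 kb on the PCAT1 side and 2.93 and 3.93 kb at MYC and PVT1, with the empty stretches of each segment included.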

How the data were processed

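Per the methods and the submitters' processing notes, the authors trimmed adapters and poor bases (Trimmomatic), mapped to hg19 (Bowtie2 2.2.6), required a mapping quality of at least 10, ran MACS on every ChIP library with its input as background, and merged replicates (bedtools). A merged region counted as replicated with peaks from at least 3 replicates. How conditions with 2 libraries were handled is not given in the sources used here. The deposited lists give each peak's start and end in bp. Centromeric peaks are included, and all deposited peaks were used.

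Widths are end minus start, and overlap is at least 1 shared base. Intersections were computed in Python 3.11.15 with numpy 2.4.6, tested on simulated intervals, and equalled bedtools 2.31.1 in 30 of 30 comparisons. Counting intervals used scipy 1.17.1, and matplotlib 3.10.9 drew the figures. Genes came from GENCODE release 44 mapped to GRCh37, and GC content from that genome. A peak was placed in an exon if it shared a base with an exon of any transcript. Printed starts count from 1, except in the rule for members. CCAT1 and CASC21 were not analysed here. A planned count of CENP-B boxes and of masked repeats was not run. Regions named are the 3 widest peaks per set, the 3 widest sites in all 6 sets and in all 5 knockdowns without control, control peaks missing from a knockdown, and the longest peak-free stretches. The interval, lists and alternatives were chosen with earlier results of these data known.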

Additional observations from a re-analysis of the deposited data

How the results depend on the processing

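A change means a ratio or count over 1.5 times away from its reported value, a ratio on the other side of 1, or a share outside its 95% Wilson interval. Each condition is 1 merged list without scores or read counts, so no replicate could be left out and no stricter score applied. No paired analysis was possible because the libraries of a condition were already joined in the deposited lists. With peaks within 1000 bp merged, DAXX knockdown had 4.71 times, HJURP knockdown 4.43 times and HIRA+HJURP 4.57 times the control number, the share without a control base was 81.8%, 80.6% and 78.1%, and 26 sites were in knockdown sets only. With no control peak allowed within 1000 bp, the DAXX share was 81.8%. With only peaks of at least 500 bp, HIRA+DAXX was 1.67 times control in number and 0.971 times in coverage, now below control. HIRA+HJURP then had 49 peaks, no longer the highest number, with 63 for DAXX and 62 for HJURP. Without the widest peak of each set, coverage was 16.3 times control for DAXX and 17.6 times for HJURP, and 2 sites were in all 6 sets, as were 2 with the interval narrowed by 50 kb at each end. In the narrowed interval control had 5 peaks over 5.61 kb, HIRA+DAXX had 24 peaks and HIRA+HJURP covered 49.1 kb. No ratio to control changed there. As a share of chromosome 8 peaks the interval held 9.18% in control, 18.97% for DAXX, 12% for HIRA, 18.6% for HJURP and 16.3% for each double knockdown, and as a share of all covered bases 9.54% for HJURP and 9.76% for HIRA+HJURP. For none of these was the cause tested. By the main transcript of each gene alone, no interval peak of any set lay in POU5F1B or CASC19, and no control peak was at an exon. Widening the interval by 50 kb, and counting peaks with any base in it, changed no ratio, share or site count.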
